A study of Saccharomyces cerevisiae with 12 samples.

Results

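Nuclear tRNA genes of Saccharomyces cerevisiae were followed across WT cells and a deletion of SIS2 (sis2Δ) grown in standard or low potassium. The members were all features whose identifier starts with a tRNA name and its anticodon in brackets, such as tA(AGC)P for an alanine tRNA gene on chromosome XVI, without those of the mitochondrial genome. There were 275 such genes among the 7112 annotated features. Cultures of MATa WT cells (strain CGY41.30) and of a sis2Δ mutant were kept in exponential growth for 24 h in medium with 7.35 mM or 0.5 mM KCl after an overnight culture in standard potassium. Each of the 4 groups held 3 biological replicates, giving 12 poly(A)-selected RNA-seq libraries. SIS2 encodes a regulatory subunit that inhibits the protein phosphatase Ppz1p. The comparisons ask how loss of SIS2 and low potassium alter transcript levels, separately and together.

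tRNAs are the adaptors that pair an mRNA codon with its amino acid, and they are made by RNA polymerase III from promoter elements that lie inside the gene itself. The primary transcripts are trimmed at both ends, some are spliced, and a CCA end is added before export and charging with an amino acid. Mature tRNAs end in CCA rather than in a poly(A) tail, whereas the nuclear TRAMP complex adds short poly(A) tails to aberrant tRNA precursors before their decay by the exosome. Counts on tRNA genes in poly(A)-selected libraries therefore report the reads assigned to these genes in such a library and are not a measure of the cellular tRNA pool. Which RNAs gave the reads, and in which form, was not tested.

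Most nuclear tRNA genes come in families of copies with the same mature RNA. In the RefSeq annotation of genome build R64, the 275 nuclear loci encode 56 distinct mature sequences, and 254 loci share theirs with at least 1 other locus. The sequences of the genes on which the results below turn are given here as DNA letters from that annotation, 5′ to 3′ and without introns or the added CCA, with the anticodon in capitals. The first is the glycine tRNA of the gene with the highest counts, and the second is the glutamate tRNA of the gene with the largest increase in low potassium in WT cells among the 78 genes with enough counts to be tested.
tG(GCC)D2: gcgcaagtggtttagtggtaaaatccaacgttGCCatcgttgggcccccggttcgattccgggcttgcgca
tE(UUC)K: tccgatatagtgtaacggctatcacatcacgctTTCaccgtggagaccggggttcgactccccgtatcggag
The glutamate sequence is shared by 13 genes, tE(UUC)G1 among them, and the glycine sequence by 16 genes.

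An aspartate gene, tD(GUC)N, stands apart in sequence and is shown with the form common to the other 15 genes of its family, represented by tD(GUC)O. The alanine, asparagine, leucine, histidine and arginine tRNAs follow because their genes changed with SIS2 or with potassium, and the initiator methionine tRNA (gene IMT1) closes the set.
tD(GUC)N: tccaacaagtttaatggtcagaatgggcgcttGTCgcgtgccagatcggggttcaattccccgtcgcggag
tD(GUC)O: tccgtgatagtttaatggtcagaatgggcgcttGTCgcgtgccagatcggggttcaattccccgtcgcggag
tA(AGC)P: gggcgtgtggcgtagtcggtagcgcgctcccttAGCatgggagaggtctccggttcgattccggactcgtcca
tN(GUU)P: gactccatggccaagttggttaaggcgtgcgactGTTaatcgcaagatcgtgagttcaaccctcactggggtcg
tL(UAG)L1: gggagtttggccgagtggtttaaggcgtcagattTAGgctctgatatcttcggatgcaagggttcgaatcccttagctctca
tH(GUG)E2: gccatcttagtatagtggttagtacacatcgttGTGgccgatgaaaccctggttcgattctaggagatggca
tR(UCU)G3: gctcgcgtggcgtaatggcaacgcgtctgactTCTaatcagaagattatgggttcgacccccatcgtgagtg
tM(CAU)O1: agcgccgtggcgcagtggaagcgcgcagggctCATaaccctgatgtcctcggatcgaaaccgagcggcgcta
The 71 bases of tD(GUC)N are 4 single-base edits away from the 72 bases of tD(GUC)O. In build R64, tD(GUC)N lies on the minus strand of chromosome XIV at 519099 to 519169, tE(UUC)K on the minus strand of chromosome XI at 141018 to 141089, tA(AGC)P on the plus strand of chromosome XVI at 856902 to 856974 and tN(GUU)P on the plus strand of the same chromosome at 810676 to 810749. tE(UUC)G1, also named SOE1, lies on the plus strand of chromosome VII at 328583 to 328654. None of these 5 genes has an annotated intron. Of the 275 genes, 170 could be tied to 1 locus. For the other 105 only the chromosome is given here. Several loci on that chromosome were candidates, except for 2 genes of undetermined anticodon, which had none.

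Reads assigned to nuclear tRNA genes were a trace of each library. The libraries held 35451323 to 46543107 counts over all features and 1444.5 to 4355.3 counts on nuclear tRNA genes, which is 0.00372% to 0.0099% of the total. The median tRNA gene had a mean of 2.88 counts per library, 211 genes had a mean under 10 counts, 52 had 10 to 50, 12 reached 50 or more, and 1 gene had no count in any library. The 12 highest genes held 41.5% of all counts on nuclear tRNA genes. SIS2 itself had 3119.5 to 3807.5 counts in the WT libraries and 39.5 to 88.5 in the sis2Δ libraries. The MATa receptor gene STE2 had at least 23681 counts in each library, against 12 to 115.5 for the MATα pheromone gene MF(ALPHA)1.

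The summed level of all 275 genes was higher in low than in standard potassium in both strains and higher in sis2Δ than in WT cells in both media. In CPM (counts per 1e6 counts of a library, with TMM scaling from edgeR), the WT libraries in 7.35 mM KCl held 42.9, 36.5 and 40.9, and the sis2Δ libraries in the same medium held 58.6, 59.8 and 55.0. In 0.5 mM KCl the WT libraries held 73.7, 84.9 and 85.5, and the sis2Δ libraries 94.1, 95.9 and 102. No group overlapped another. The means were 40.1 ± 3.27, 57.8 ± 2.47, 81.3 ± 6.604 and 97.4 ± 4.31 CPM (SD, n = 3 each) in the order given. Low potassium thus came with a sum 2.03 times higher in WT and 1.69 times higher in sis2Δ, and the deletion with a sum 1.44 times higher in standard and 1.20 times higher in low potassium. These sums are a description with no test.

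**Figure D1:**
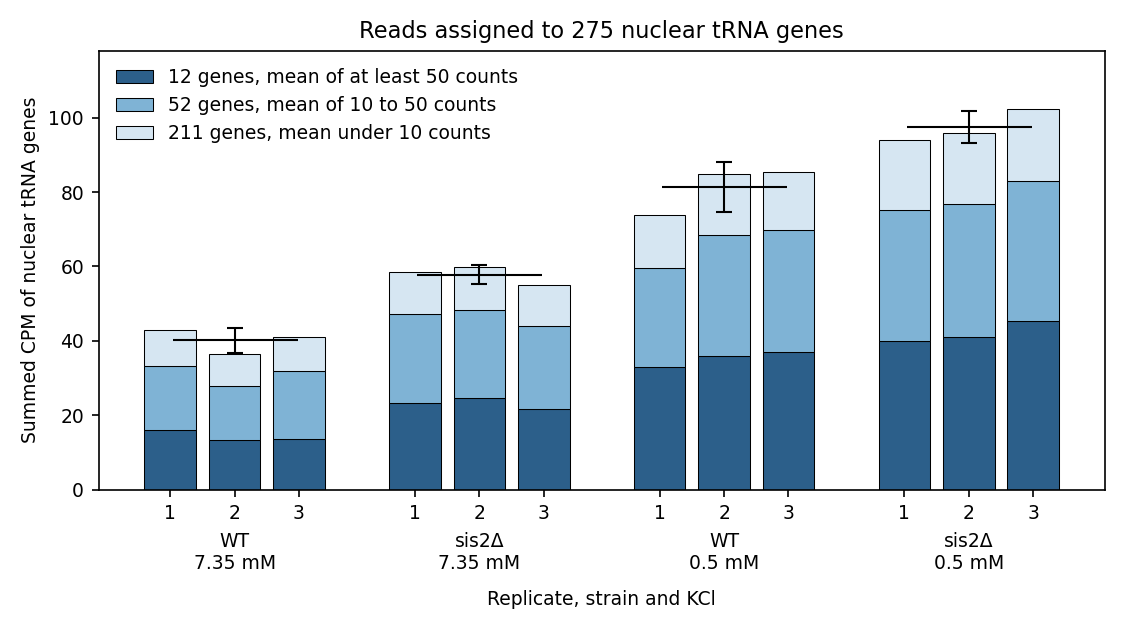
Summed CPM of the 275 nuclear tRNA genes in each library (bars, y axis from 0; replicate number, strain and KCl on the x axis), divided into the 12 genes with 50 or more mean counts, the 52 with 10 to 50 and the 211 with fewer; lines and error bars are the group mean and SD. The 3 WT libraries in 7.35 mM KCl are the lowest at 36.5 to 42.9 and the 3 sis2Δ libraries in 0.5 mM KCl the highest at 94.1 to 102.

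The same order of groups was seen in the sums of all 3 abundance classes. The 12 highest genes summed to 14.3 ± 1.55 CPM in WT and 23.2 ± 1.49 in sis2Δ in standard potassium, and to 35.2 ± 2.01 and 42.1 ± 2.90 in low potassium (SD, n = 3). The 52 genes of 10 to 50 counts gave 16.7 ± 1.92, 23.3 ± 0.83, 30.7 ± 3.46 and 36.2 ± 1.20 CPM in the same order. The 211 genes with few counts, described together, gave 9.14 ± 0.47, 11.3 ± 0.31, 15.4 ± 1.26 and 19.1 ± 0.22 CPM. Within each class no pair of groups that differ in 1 factor overlapped.

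Taken gene by gene and with no filter, 218 of the 275 genes had a higher mean CPM in low than in standard potassium in WT cells, 52 a lower one, and 5 were equal. In sis2Δ cells the numbers were 215 higher and 54 lower. Between strains, 178 genes had the higher mean in sis2Δ and 88 the lower in standard potassium, and 170 and 99 in low potassium. The share over all features was not counted for these directions. Over all 6691 features tested, the median log2 fold change was -0.0012 for low potassium in WT and 0.0023 in sis2Δ. For the deletion it was -0.0003 in standard and 0.0010 in low potassium. Only 78 of the 275 genes had enough counts to be tested, and 197 did not. Because a gene could enter the test through the group where it was high, the counts of calls below are descriptions of the tested genes alone. Comparisons that share a group share its error.

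In WT cells, 42 of the 78 tested tRNA genes rose in low potassium and none fell (edgeR's quasi-likelihood test, Benjamini-Hochberg adjusted p under 0.05). Of all 6691 features tested, 24.1% were called higher and 23.3% lower in this comparison, whereas 53.8% of the tested tRNA genes were called higher. At an unadjusted p under 0.05, 48 tRNA genes were higher and 0 lower, and DESeq2 called 43 higher and 0 lower. With a filter that asked for 10 counts in every library, and so tested fewer tRNA genes, 18 were called. When the scaling was taken from the tRNA genes alone, so that each gene was read against the other tRNA genes, 18 were higher and 16 lower. The median log2 fold change of all features was then -0.91. Here and below, shares over all features belong to edgeR's adjusted p with scaling on all features. None was counted for the other settings.

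In WT cells, glutamate tRNA genes rose most among the 12 highest genes. tE(UUC)K is in that class at a mean of 58.4 counts over all libraries, most of them in low potassium. tE(UUC)K had 0.37, 0.35 and 0.34 CPM in the WT libraries in standard potassium and 2.14, 3.54 and 2.95 in low potassium. All low potassium libraries were well above all standard ones, and the log2 fold change was 2.99 ± 0.23 (SE), with an adjusted p of 3.49e-10 in edgeR's test. In sis2Δ cells the same gene went from 0.57, 0.80 and 0.53 to 1.87, 1.83 and 2.37 CPM, a log2 fold change of 1.69 ± 0.22 with an edgeR adjusted p of 1.53e-06.

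tE(UUC)G1, which carries the identical mature sequence, had 1.02, 0.68 and 1.17 CPM in WT in standard and 3.35, 4.63 and 5.41 in low potassium. Its log2 fold change was 2.22 ± 0.19 in WT and 1.25 ± 0.17 in sis2Δ, where the libraries held 1.82, 1.55 and 1.53 CPM in standard and 3.53, 4.47 and 3.70 in low potassium. The 2 groups did not overlap in either strain.

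The aspartate gene of unique sequence, tD(GUC)N, rose with low potassium in both strains and was not called between strains. WT libraries held 1.09, 1.08 and 1.21 CPM in standard and 3.995, 3.99 and 3.70 in low potassium, a log2 fold change of 1.78 ± 0.13 (edgeR adjusted p 1.07e-10). In sis2Δ the values were 0.96, 1.07 and 1.06 against 4.41, 5.19 and 4.56 CPM, a log2 fold change of 2.20 ± 0.13 (edgeR adjusted p 2.93e-12). Against WT, sis2Δ differed by -0.14 ± 0.16 in standard and 0.28 ± 0.10 in low potassium on the log2 scale, neither past the threshold (adjusted p 0.633 and 0.182), although the strains did not overlap in either medium.

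The glycine gene tG(GCC)D2, the highest of all at a mean of 202.6 counts, rose under both factors. Its WT libraries held 2.11, 1.83 and 1.6004 CPM in standard and 6.497, 6.33 and 5.57 in low potassium, and its sis2Δ libraries 3.89, 4.37 and 3.97 and then 7.82, 7.97 and 9.14. The 4 groups did not overlap. The log2 fold change with low potassium was 1.73 ± 0.12 in WT and 1.03 ± 0.10 in sis2Δ (edgeR adjusted p 6.65e-11 and 3.04e-08).

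Among the other genes of that class, the increase in WT was 1.59 ± 0.25 on the log2 scale for the alanine gene tA(AGC)P, 1.504 ± 0.17 for the asparagine gene tN(GUU)P, 1.14 ± 0.13 for the proline gene tP(UGG)O1, 0.94 ± 0.24 for the arginine gene tR(UCU)G3 and 0.88 ± 0.14 for the leucine gene tL(UAG)L1, each past the threshold. Under the scaling on tRNA genes alone, tP(UGG)O1, tR(UCU)G3 and tL(UAG)L1 were not called, at 0.24, 0.034 and -0.023 (edgeR adjusted p 0.206, 0.875 and 0.908). Low and standard potassium did not overlap for any of these 5 genes. The lysine gene tK(UUU)D, at 2.36, 2.07 and 1.57 CPM in standard and 2.42, 2.6999 and 2.62 in low potassium, was not called (0.36 ± 0.16, adjusted p 0.0757), nor was the tryptophan gene tW(CCA)P (0.29 ± 0.19, adjusted p 0.224).

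**Figure D2:**
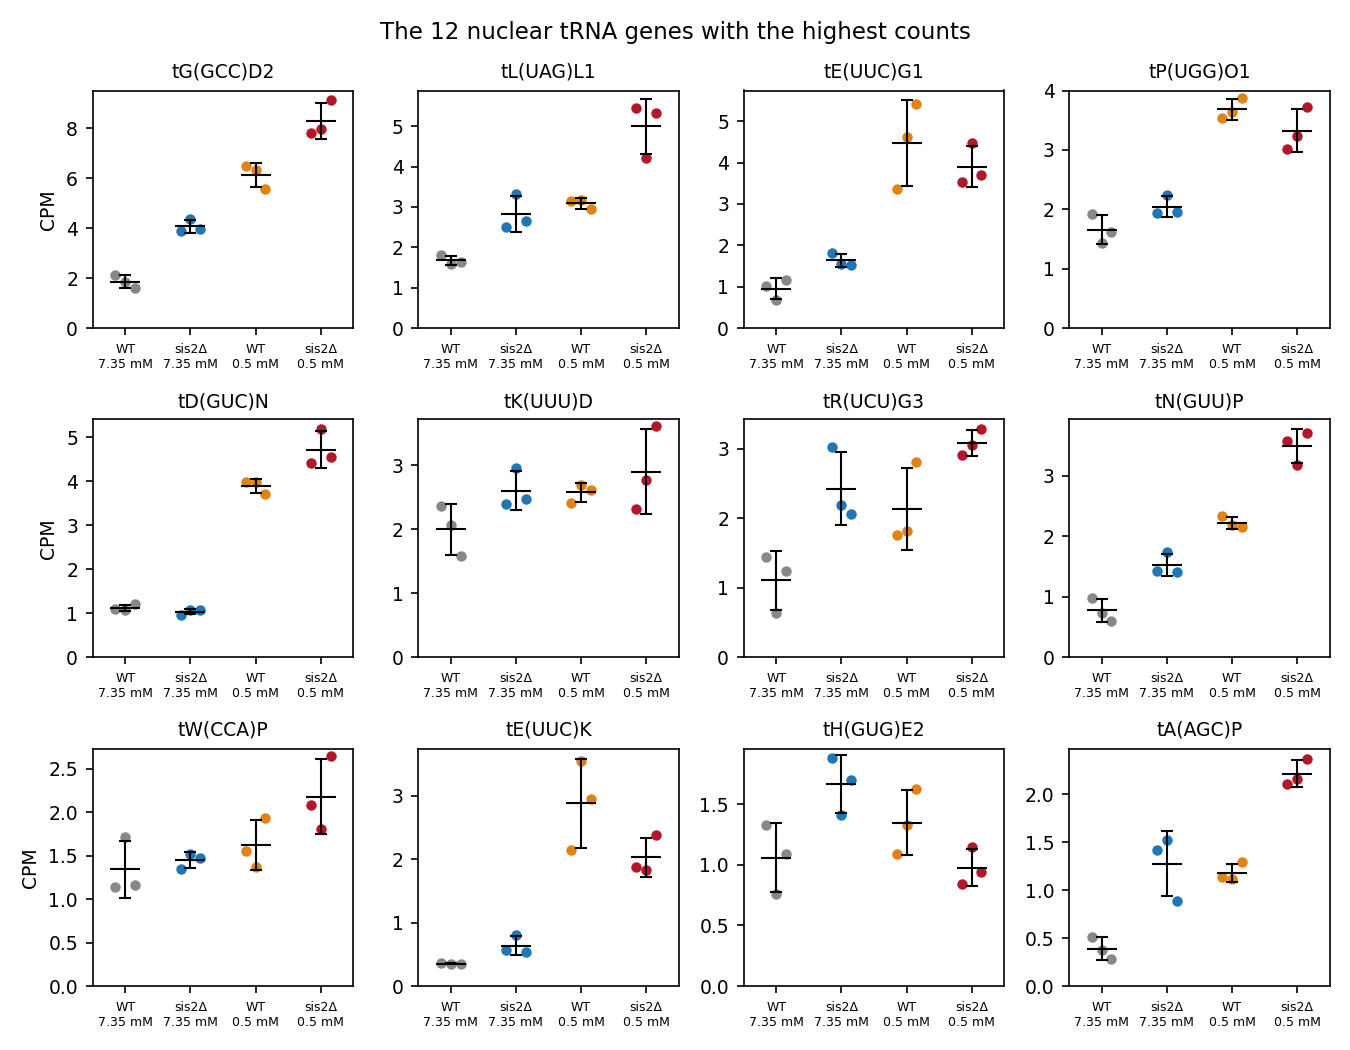
CPM of the 12 nuclear tRNA genes with the highest mean counts (one panel each, y axis from 0) in the 3 libraries of each group (points), with the group mean and SD (line and error bars). tG(GCC)D2 goes from 1.6004 to 2.11 in WT at 7.35 mM to 7.82 to 9.14 in sis2Δ at 0.5 mM, tD(GUC)N is at 0.96 to 1.21 in all libraries at 7.35 mM and at 3.70 to 5.19 at 0.5 mM, and tH(GUG)E2 is lower at 0.5 mM than at 7.35 mM in sis2Δ.

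In sis2Δ cells, 37 of the 78 tested tRNA genes rose in low potassium and 1, the histidine gene tH(GUG)E2, fell. Among all features, 24.4% were called higher and 21.7% lower. The numbers were 41 and 2 at an unadjusted p under 0.05, and 34 and 1 in DESeq2. With 10 counts required in every library, and so fewer tRNA genes tested, 20 were called in total. With scaling on the tRNA genes alone, 14 were higher and 8 lower. tH(GUG)E2 had 1.88, 1.41 and 1.70 CPM in sis2Δ in standard and 0.85, 1.15 and 0.94 in low potassium, with no overlap. Its log2 fold change was -0.79 ± 0.20 (edgeR adjusted p 0.0029). In WT cells the values were 1.32, 0.76 and 1.09 against 1.09, 1.33 and 1.62, the groups overlapped, and the gene was not called (0.34 ± 0.20, adjusted p 0.179).

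tN(GUU)P rose by 1.21 ± 0.14 on the log2 scale in sis2Δ, tL(UAG)L1 by 0.83 ± 0.12, tA(AGC)P by 0.80 ± 0.17 and tP(UGG)O1 by 0.71 ± 0.13, all past the threshold and without overlap of the groups. tW(CCA)P was also called in sis2Δ (0.60 ± 0.18, adjusted p 0.00795 in edgeR's test), with 1.35, 1.52 and 1.48 CPM in standard and 2.08, 1.80 and 2.65 in low potassium. Without sis2Δ replicate 3 in 0.5 mM KCl its adjusted p was 0.0828 at a log2 fold change of 0.42. Of these 5 genes, tN(GUU)P was still called under the scaling on tRNA genes alone (0.53), and tL(UAG)L1, tA(AGC)P, tP(UGG)O1 and tW(CCA)P were not, at 0.16, 0.13, 0.034 and -0.080 (edgeR adjusted p 0.368, 0.566, 0.864 and 0.71).

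Deletion of SIS2 in standard potassium came with 13 of the 78 tested tRNA genes higher and none lower. Of all features tested, 6.28% were called higher and 7.05% lower, and of the tested tRNA genes 16.7% were called higher. At an unadjusted p under 0.05 the tRNA genes were 28 higher and 0 lower, and DESeq2 called 12 and 0. With scaling on the tRNA genes alone, 6 were higher and 4 lower. The log2 fold changes of the 13 called genes ran from 0.66 to 1.90. The count was 8 without WT replicate 2, without sis2Δ replicate 1 or without sis2Δ replicate 2 in 7.35 mM KCl.

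tA(AGC)P rose most with the deletion among the 12 highest genes. It is in that class at a mean of 50.5 counts over all libraries. All 11 genes with its anticodon together had only 29.5, 26 and 27 counts in the WT libraries in standard potassium. In standard potassium WT libraries held 0.51, 0.38 and 0.28 CPM and sis2Δ libraries 1.42, 1.52 and 0.89, a log2 fold change of 1.70 ± 0.24 (edgeR adjusted p 4.55e-05). In low potassium WT libraries held 1.14, 1.12 and 1.29 CPM and sis2Δ libraries 2.11, 2.16 and 2.37, a log2 fold change of 0.90 ± 0.17 (edgeR adjusted p 0.00558). Every sis2Δ library was above every WT library of the same medium.

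tG(GCC)D2 and tR(UCU)G3 rose by 1.14 ± 0.13 and 1.14 ± 0.23 on the log2 scale in sis2Δ in standard potassium, tN(GUU)P by 0.95 ± 0.18 and tL(UAG)L1 by 0.74 ± 0.14. tR(UCU)G3 had 1.44, 0.63 and 1.24 CPM in WT and 3.02, 2.19 and 2.06 in sis2Δ. tE(UUC)G1 (0.78 ± 0.22, edgeR adjusted p 0.0225) and tH(GUG)E2 (0.66 ± 0.19, edgeR adjusted p 0.0277) were also called. Under the scaling on tRNA genes alone, tL(UAG)L1, tE(UUC)G1 and tH(GUG)E2 were not called, at 0.26, 0.30 and 0.18 (edgeR adjusted p 0.181, 0.176 and 0.42). Without WT replicate 1 or 2 or sis2Δ replicate 1 or 2 in 7.35 mM KCl, tE(UUC)G1 was not called, with log2 fold changes of 0.84, 0.61, 0.70 and 0.82 (adjusted p 0.0531, 0.121, 0.0804 and 0.0527). tH(GUG)E2 was not called without WT replicate 2 or 3 or sis2Δ replicate 1 or 3 of that medium, with log2 fold changes of 0.48, 0.68, 0.56 and 0.66 (adjusted p 0.15, 0.056, 0.0974 and 0.0683).

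In low potassium, 8 of the 78 tested tRNA genes were higher in sis2Δ than in WT and none was lower, against 1.21% of all features higher and 0.583% lower. Of the tested tRNA genes, 10.3% were called higher. At an unadjusted p under 0.05 the tRNA genes were 21 higher and 2 lower, and DESeq2 called 5 and 0. With scaling on the tRNA genes alone, 2 were higher and 2 lower. The count was 5 without WT replicate 1, WT replicate 2 or, from the other medium, sis2Δ replicate 2 in 7.35 mM KCl, 4 without WT replicate 3 or sis2Δ replicate 1, and 3 without sis2Δ replicate 3 (0.5 mM KCl where not stated). With the replicate number as a block 7 were called, the valine gene tV(AAC)G2 being lost (adjusted p 0.055).

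tL(UAG)L1 had 3.16, 3.17 and 2.94 CPM in WT and 5.44, 4.21 and 5.33 in sis2Δ in low potassium, a log2 fold change of 0.70 ± 0.12 (edgeR adjusted p 0.00171). tN(GUU)P had 2.33, 2.18 and 2.15 against 3.58, 3.17 and 3.71 CPM, a log2 fold change of 0.65 ± 0.13 (edgeR adjusted p 0.00672). The sis2Δ libraries were above the WT libraries for both genes. tG(GCC)D2 rose by 0.44 ± 0.10 on the log2 scale (edgeR adjusted p 0.0143), and without WT replicate 3 or sis2Δ replicate 3 in 0.5 mM KCl it was not called (0.38 and 0.37, adjusted p 0.089 and 0.111). Under the scaling on tRNA genes alone, tL(UAG)L1, tN(GUU)P and tG(GCC)D2 were not called, at 0.44, 0.40 and 0.18 (edgeR adjusted p 0.0602, 0.0885 and 0.313).

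The effect of the deletion was tested for a difference between media with an interaction term, the effect in 0.5 mM minus that in 7.35 mM KCl. It was past the threshold for 3 of the 78 tested tRNA genes, all lower in sign, against 1.72% of all features higher and 1.06% lower. At an unadjusted p under 0.05 the tRNA genes were 1 higher and 10 lower, and DESeq2 called 0 and 4. tG(GCC)D2 had an interaction of -0.69 ± 0.16 (edgeR adjusted p 0.0166), tH(GUG)E2 of -1.13 ± 0.29 (edgeR adjusted p 0.0322) and tE(UUC)K of -1.30 ± 0.35 (edgeR adjusted p 0.0469), on the log2 scale. For tG(GCC)D2 the excess in sis2Δ was smaller in low than in standard potassium. For tE(UUC)K and tH(GUG)E2, the sis2Δ mean was above the WT mean in standard and below it in low potassium, and only the increase of tH(GUG)E2 in standard potassium was a call.

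The interaction calls depended on single libraries. The number of tRNA genes called was 0 without WT replicate 3 in 7.35 mM KCl, and 1 without WT replicate 2 or any 1 of the 3 sis2Δ replicates in 7.35 mM KCl or without WT replicate 2, WT replicate 3 or sis2Δ replicate 1 in 0.5 mM KCl. It was 0 with scaling on the tRNA genes alone. tG(GCC)D2 was lost without WT replicate 3 or sis2Δ replicate 2 in 7.35 mM KCl (-0.61 and -0.65, adjusted p 0.069 and 0.0502). tH(GUG)E2 was lost under 8 and tE(UUC)K under 10 of the 12 omissions, with interactions from -1.34 to -0.95 and from -1.48 to -1.12. tE(UUC)G1 was just outside (-0.97 ± 0.27, adjusted p 0.051) and was called with the replicate number as a block (adjusted p 0.0434).

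Genes with the same mature RNA differed widely in their counts. Among the 266 genes with a known mature sequence there were 24 sets of at least 5 genes with 1 sequence. In 19 of these sets the highest gene had at least 3 times the mean count of the set's median gene. Genes without a known sequence here are in no set, such as tP(UGG)O1, the highest gene of its family. The median ratio of highest to median gene was 9.75, from 1.25 to 110. tG(GCC)D2 held 69.2% of the counts of 16 identical genes, where an equal share is 6.25%, with 202.6 mean counts against 37.7 for tG(GCC)P1, the next, and 2.3 for the median gene.

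tL(UAG)L1 held 98.9% of the counts of 3 identical leucine genes, tW(CCA)P 91.2% of 6 tryptophan genes and tA(AGC)P 80.8% of 11 alanine genes. tE(UUC)G1 held 46.6% and tE(UUC)K, the next, had 58.4 mean counts in a set of 13 whose median gene had 4.6. Other sets were more even, such as the alanine genes tA(UGC), of which the highest of 5 held 32.8% where an equal share is 20%. A mature RNA read cannot be assigned to 1 of several identical genes by its own bases, and reads that reach the flanks or the intron can. Which reads made up the counts of each gene was not tested.

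**Figure D3:**
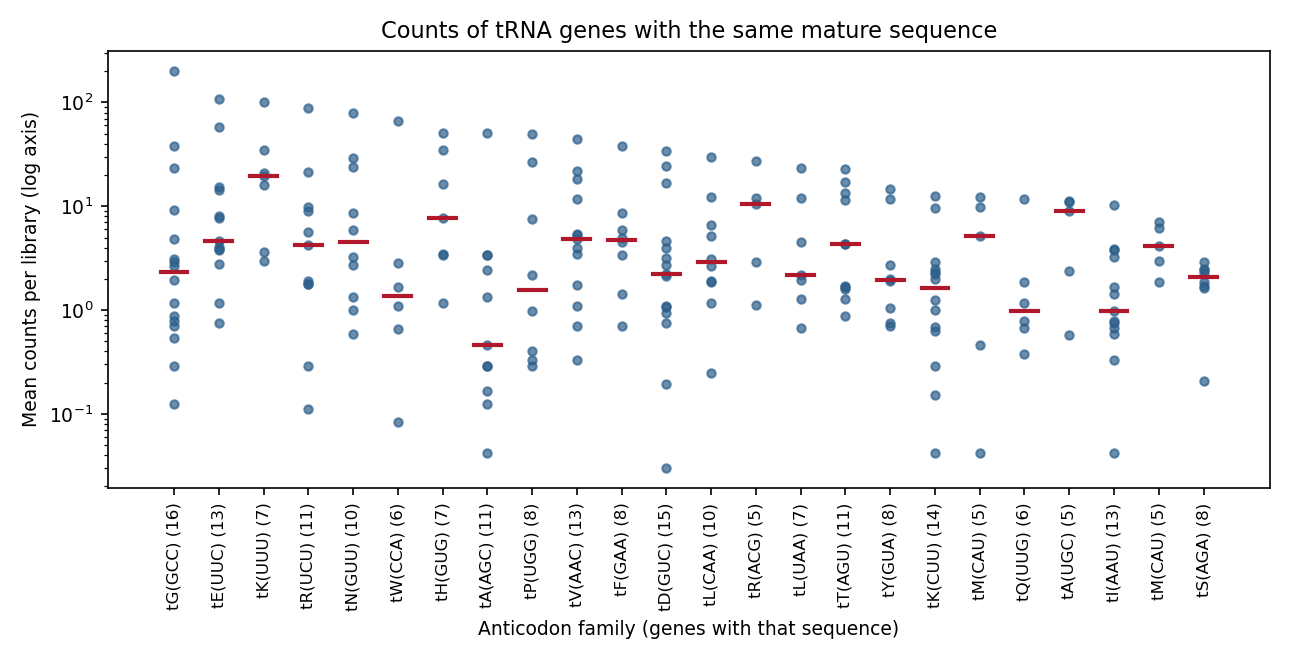
Mean counts per library (log axis) of tRNA genes that share 1 mature sequence, for the 24 sequences with at least 5 genes; each point is a gene, the red line is the set's median, and the number of genes is in brackets. Genes without a known mature sequence here are left out. One gene with no counts, of tD(GUC), is drawn at the lower edge. The top gene of tG(GCC) is at 202.6 counts and the median of its 16 genes at 2.3.

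Because reads could be divided among copies in ways that differ between genes, the counts were also summed by anticodon. Of the 41 anticodon families, 39 had a higher mean in low than in standard potassium in WT and 38 in sis2Δ, and 35 and 33 had a higher mean in sis2Δ than in WT in standard and in low potassium. The share over all features was not counted for these directions. The median log2 fold change of all features tested with the families was between -0.0013 and 0.0022 in these 4 comparisons. The highest were tG(GCC) at a mean of 7.37 CPM over the 12 libraries, tE(UUC) at 5.89, tP(UGG) at 5.21, tD(GUC) at 5.13, tK(UUU) at 4.97, tV(AAC) at 4.24, tN(GUU) at 3.93, tR(UCU) at 3.59, tL(UAG) at 3.18 and tH(GUG) at 2.95. A total of 33 families had enough counts to be tested in a table of 6646 features. A family, like a gene, could enter the test through the group where it was high. The counts of calls below therefore describe the tested families alone.

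In low potassium 25 of the 33 families rose in WT and none fell, beside 24.1% of all features higher and 23.3% lower, and 24 rose in sis2Δ and none fell, beside 24.4% and 21.7%. At an unadjusted p under 0.05, 27 families were higher and 1 lower in WT and 25 and 0 in sis2Δ, and DESeq2 called 23 and 0, and 21 and 0. With scaling on the families alone, 8 were higher and 5 lower in WT, and 5 and 8 in sis2Δ. Glutamate family tE(UUC) had 2.47, 1.95 and 2.40 CPM in WT in standard and 7.72, 10.3 and 10.7 in low potassium, a log2 fold change of 2.07 ± 0.13 (edgeR adjusted p 1.06e-11). Families of few counts were at the top beside it. In WT these were the isoleucine family tI(UAU), with 2 genes and 7.2 mean counts (2.16 ± 0.46), and the proline family tP(AGG), with 2 genes and 18.2 mean counts (1.69 ± 0.39). In the WT libraries in standard potassium, tI(UAU) had only 3, 2 and 1.5 counts and tP(AGG) 5, 13.5 and 4.5. Their place at the top thus rests on few counts.

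In sis2Δ the highest were tP(AGG) at 1.89 ± 0.35, the alanine family tA(UGC) at 1.74 ± 0.19 and the glycine family tG(CCC) at 1.53 ± 0.38, the last not called with scaling on the families alone (0.78, edgeR adjusted p 0.0516). In the sis2Δ libraries in standard potassium, tP(AGG) had only 8.5, 14 and 4.83 counts and tG(CCC) 10.5, 5 and 6. tA(UGC) had 0.41, 0.58 and 0.41 CPM in standard and 1.73, 1.38 and 1.55 in low potassium in sis2Δ, with no overlap. The lysine family tK(UUU), among the 5 highest by level, was not called in either strain, at 4.10 and 4.76 mean CPM in WT and 5.06 and 5.94 in sis2Δ.

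Between strains, 11 families were higher in sis2Δ in standard potassium and 3 in low potassium, and none was lower. Over all features 6.33% were higher and 7.09% lower in standard and 1.07% and 0.572% in low potassium. The unadjusted numbers of families were 20 higher and 0 lower, and 13 and 0, and DESeq2 called 10 and 0, and 3 and 0. With scaling on the families alone, 3 were higher and 2 lower in standard potassium, and 2 and 2 in low potassium. tA(AGC) was the highest in both, at 1.20 ± 0.19 and 0.82 ± 0.15 on the log2 scale (edgeR adjusted p 0.000146 and 0.00308). It was followed in standard potassium by the arginine family tR(ACG) at 1.10 ± 0.25 and tG(GCC) at 0.85 ± 0.11, and in low potassium by tL(UAG) at 0.69 ± 0.12 and tN(GUU) at 0.55 ± 0.10, the last not called with scaling on the families alone (0.23, edgeR adjusted p 0.14).

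tR(ACG) had 0.66, 0.48 and 0.72 CPM in WT and 1.502, 1.19 and 1.26 in sis2Δ in standard potassium. The interaction was past the threshold for 3 families, all lower in sign: tE(UUC) at -0.76 ± 0.18 (edgeR adjusted p 0.0213), tG(GCC) at -0.54 ± 0.14 (edgeR adjusted p 0.0377) and tH(GUG) at -0.72 ± 0.19 (edgeR adjusted p 0.0451), beside 1.73% of all features higher and 1.07% lower. At an unadjusted p under 0.05 the families were 0 higher and 5 lower, and DESeq2 called 3. The count was 0 without WT replicate 2 in 7.35 mM KCl or WT replicate 2 or sis2Δ replicate 1 in 0.5 mM KCl. It was 1 without WT replicate 3, sis2Δ replicate 1 or sis2Δ replicate 3 in 7.35 mM KCl or WT replicate 3 in 0.5 mM KCl.

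**Figure D4:**
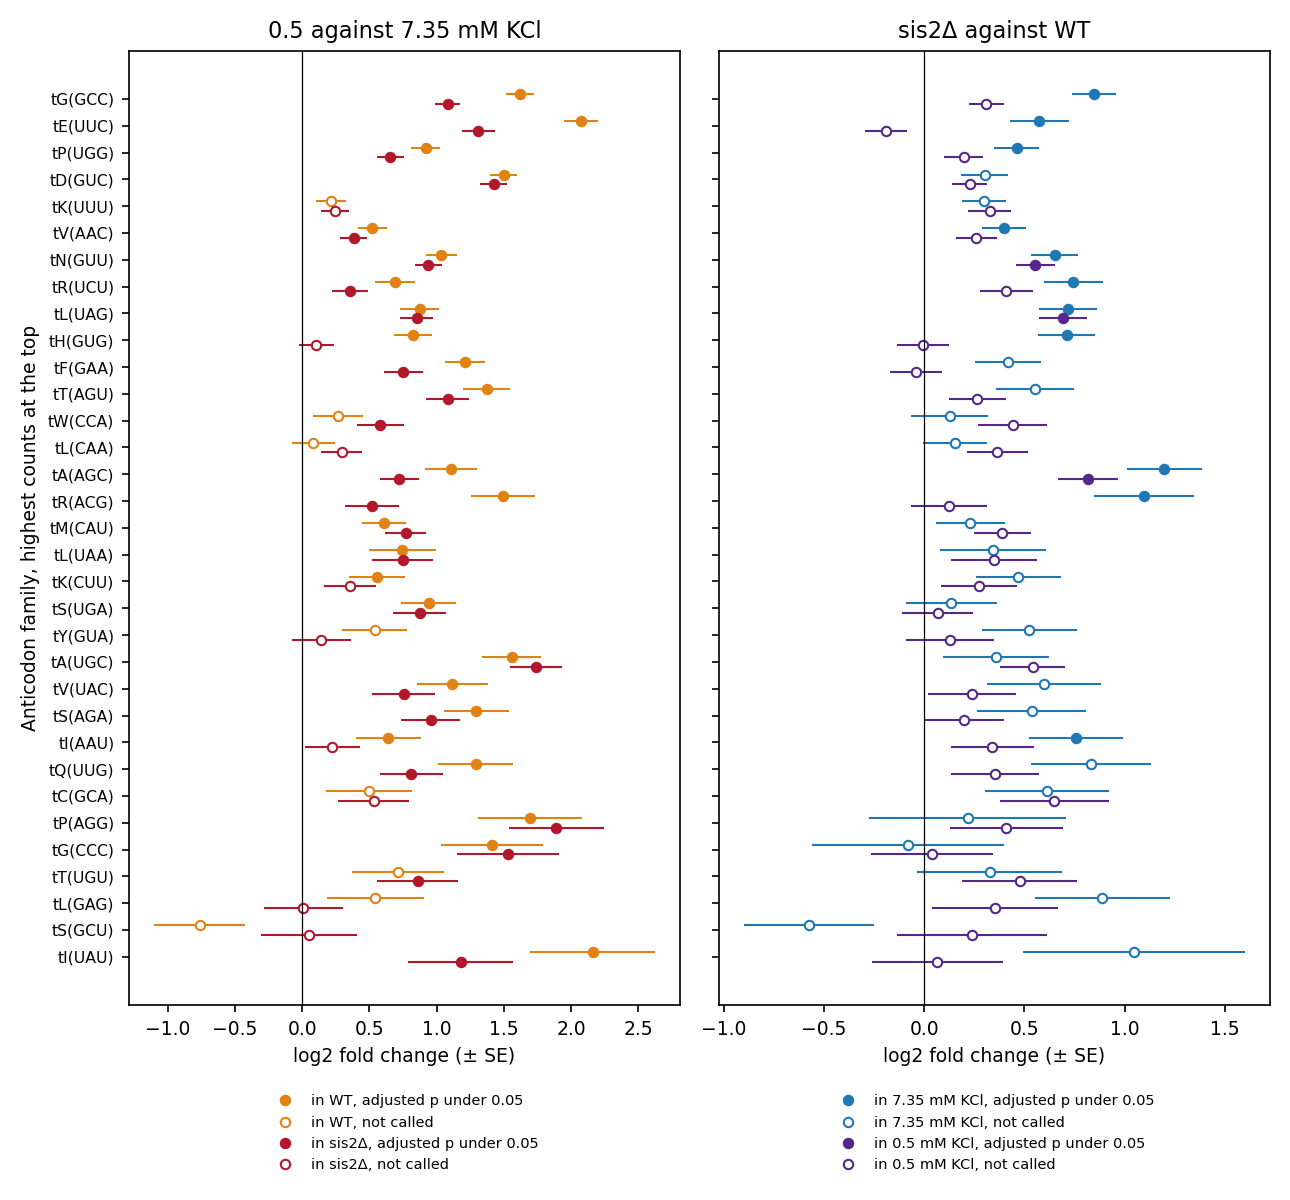
Log2 fold changes with SE (x axis) of the 33 tested anticodon families, ordered by mean counts (y axis), for low against standard potassium (left) and sis2Δ against WT (right); filled points have an edgeR adjusted p under 0.05. For low potassium 25 families in WT and 24 in sis2Δ are filled and all of these lie right of 0; for sis2Δ 11 are filled in 7.35 mM and 3 in 0.5 mM KCl.

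Genes with an intron gave smaller ratios than genes without one when low and standard potassium were compared. The 59 genes with an annotated intron summed to 14.3 ± 0.91 CPM in WT and 18.6 ± 1.52 in sis2Δ in standard potassium, and to 21.6 ± 1.12 and 26.7 ± 2.28 in low potassium (SD, n = 3). The 214 genes without an intron summed to 25.7 ± 2.38, 39.0 ± 1.22, 59.5 ± 5.39 and 70.4 ± 2.63 CPM in that order. The log2 ratios of the means for low potassium were 0.60 with and 1.21 without an intron in WT, and 0.52 and 0.85 in sis2Δ. The difference between these classes was not tested. The 4 genes named IMT1 to IMT4, for the initiator methionine tRNA that begins translation, held 1.00% of the counts. They summed to 0.42 ± 0.14, 0.62 ± 0.17, 0.73 ± 0.09 and 0.98 ± 0.17 CPM. Among groups that differ in 1 factor only WT in low and standard potassium did not overlap. The mature sequence of IMT1 is shared by 5 genes, and this sum holds only the genes with an IMT name.

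A tRNA gene lies close to other genes, and reads of a neighbour that extend over it could be counted on it. Of the 170 located genes, 75 have another annotated gene on the same strand within 500 bp, and 20 such pairs had both genes tested. In 18 of them the neighbour lay downstream, so that its transcript runs away from the tRNA gene, and in 2 upstream. Across these 20 pairs the log2 fold changes of tRNA gene and neighbour had a Pearson r of -0.01 for low potassium in WT, 0.45 for low potassium in sis2Δ, -0.40 for the deletion in standard and 0.67 in low potassium. For 32 pairs on opposite strands r was 0.36, 0.52, 0.06 and -0.14. Genes are not independent replicates, and the values are a description of these few pairs. Whether reads of neighbours were counted on the tRNA genes was not tested.

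tD(GUC)N stands 254 bp before POR1, the gene of the mitochondrial outer membrane porin, on the same strand. POR1 had mean levels of 649 CPM in WT and 781 in sis2Δ in standard potassium and 1590 and 1921 in low potassium, with log2 fold changes of 1.29 and 1.30 beside 1.78 and 2.20 for the tRNA gene. On the opposite strand, 287 bp upstream, the feature YNL054W-B rose by 1.66 and 1.77. The part of either neighbour in the counts of tD(GUC)N was not tested. tE(UUC)K stands 327 bp before MCD4, which acts in the synthesis of glycosylphosphatidylinositol anchors. MCD4 had 104 and 93.2 CPM in WT in standard and low potassium. Its log2 fold change of -0.16 was not past the threshold, beside 2.99 for tE(UUC)K. The part of MCD4 in the counts of tE(UUC)K was not tested. tA(AGC)P, tN(GUU)P and tE(UUC)G1 had no tested same-strand neighbour within 500 bp. On the opposite strand, MEP3 lies 235 bp downstream of tN(GUU)P. Its log2 fold changes with low potassium were -0.92 in WT and -0.51 in sis2Δ, beside 1.504 and 1.21 for tN(GUU)P. VPS45, 220 bp downstream of tE(UUC)G1 on the opposite strand, had 0.11 and 0.01 beside 2.22 and 1.25.

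Some other RNAs that are not made as polyadenylated mRNAs also moved in these libraries, though not all with potassium. The 81 small nucleolar RNAs (snR genes) summed to 224 ± 9.23, 250 ± 7.08, 280 ± 7.22 and 296 ± 13.8 CPM (SD, n = 3) in WT and sis2Δ in standard and then in low potassium, log2 ratios for low potassium of 0.32 in WT and 0.24 in sis2Δ beside 1.02 and 0.75 for nuclear tRNA genes. SCR1, the RNA of the signal recognition particle and also a product of RNA polymerase III, had 5.07 ± 0.31, 11.3 ± 2.13, 8.55 ± 0.08 and 11.8 ± 1.79 CPM. Its log2 ratios for low potassium were 0.75 in WT, where the media did not overlap, and 0.06 in sis2Δ, where they did. LSR1, the U2 spliceosomal RNA, had 3.63 ± 0.37, 6.94 ± 0.81, 7.69 ± 0.50 and 9.99 ± 0.62, log2 ratios for low potassium of 1.08 and 0.53 without overlap. RPR1, the RNA of RNase P, which trims tRNA 5′ ends, had 2.28 ± 0.13, 3.56 ± 0.50, 2.37 ± 0.11 and 2.56 ± 0.80. Its log2 ratios for low potassium were 0.06 in WT and -0.48 in sis2Δ, and the media overlapped in both strains. The 12 nuclear rRNA features summed to 2.35 ± 0.09, 2.39 ± 0.70, 3.53 ± 0.43 and 6.22 ± 0.66, log2 ratios for low potassium of 0.59 and 1.38 without overlap. The 18 mitochondrial tRNA genes summed to at most 0.123 in any library. The part of differences in RNA selection between libraries in the tRNA results was not tested.

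Of the mRNAs for the tRNA pathway, those called with low potassium were mostly lower. Of 27 genes for RNA polymerase III and its factors, 14 fell, 1 rose and 12 were not called in low potassium in WT, and 15 fell and 1 rose in sis2Δ, where 23.3% and 21.7% of all features were lower. The 1 that rose in both was MAF1, the repressor of RNA polymerase III, by 0.31 ± 0.06 on the log2 scale in WT (edgeR adjusted p 0.000384) and 0.56 ± 0.06 in sis2Δ. The subunit gene RPC37 fell by 0.44 ± 0.06 in WT and 0.38 ± 0.06 in sis2Δ, RPC25 by 0.42 ± 0.07 in WT and RET1, the second largest subunit, by 0.38 ± 0.06 in sis2Δ. The list's median was -0.16 in WT and -0.17 in sis2Δ, beside about 0 for all features in both strains.

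Of 23 genes for end processing, splicing and export, 10 fell and 0 rose in each strain, with medians of -0.13 and -0.15, where 23.3% of all features were lower in WT and 21.7% in sis2Δ, and 24.1% and 24.4% were higher. RPP1, a protein subunit of RNase P, fell by 0.52 ± 0.06 in WT and 0.48 ± 0.06 in sis2Δ, SEN54 of the splicing endonuclease by 0.45 ± 0.06 in WT, and LHP1, the La protein that binds precursor 3′ ends, by 0.45 ± 0.06 in sis2Δ. Among 52 tRNA modification genes 38 fell in WT and 34 in sis2Δ and none rose, with medians of -0.25 and -0.20. SMM1, a dihydrouridine synthase, fell by 0.78 ± 0.06 and TAD2, a subunit of the wobble adenosine deaminase, by 0.63 ± 0.07 in WT, and the methyltransferase subunit genes TRM11 and TRM82 fell by 0.48 ± 0.06 and 0.46 ± 0.05 in sis2Δ.

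Cytosolic aminoacyl-tRNA synthetases, which charge the tRNAs, fell in 13 of 22 cases in WT and 20 of 22 in sis2Δ with none higher, beside the same 23.3% and 21.7% of all features lower. ALA1, the alanyl-tRNA synthetase, fell by 0.62 ± 0.07 and 0.61 ± 0.07, and YNL247W, the cysteinyl-tRNA synthetase, by 0.39 ± 0.06 and 0.47 ± 0.06. The medians were -0.17 and -0.24. Of 24 genes for nuclear RNA surveillance and tRNA decay, 11 fell in WT and 12 in sis2Δ. Only MET22 rose in each strain, by 0.51 ± 0.07 and 0.32 ± 0.07; its product removes a nucleotide that inhibits 5′ exonucleases. The exosome gene RRP42 fell by 0.62 ± 0.06 and 0.41 ± 0.06, and RAT1, a nuclear 5′ exonuclease, by 0.55 ± 0.06 and 0.50 ± 0.06. These lists were chosen with earlier results of these data known.

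**Figure D5:**
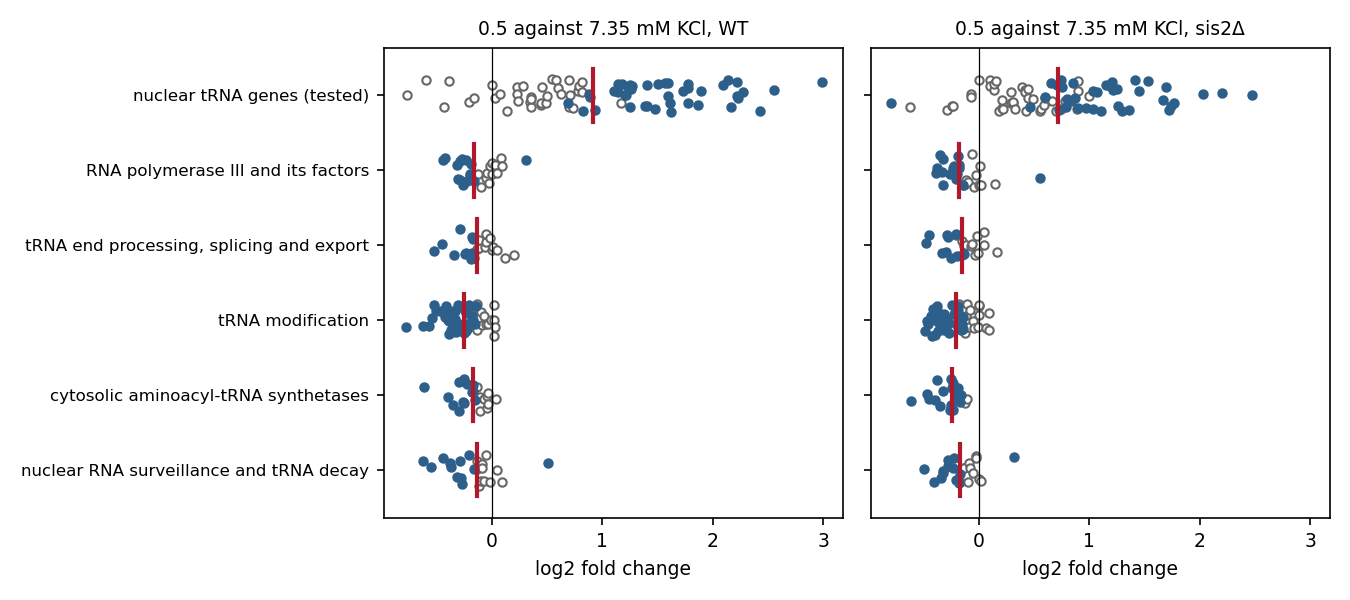
Log2 fold changes (x axis) for low against standard potassium in WT (left) and sis2Δ (right) of the 78 tested nuclear tRNA genes and of 5 lists of genes that make, process, modify, charge or degrade tRNAs; points are genes, filled where the edgeR adjusted p is under 0.05, and red lines are medians. The medians of the tRNA genes are 0.91 and 0.72, and those of the lists lie between -0.25 and -0.13.

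With the deletion in standard potassium, 4 of the 148 list members were called, where 6.28% of all features were higher and 7.05% lower. RPB5, a subunit shared by the nuclear RNA polymerases, rose by 0.25 ± 0.07 and AIR2 of the TRAMP complex by 0.23 ± 0.07, while TAD2 and SMM1 fell by 0.30 ± 0.07 and 0.30 ± 0.06. With the replicate number as a block, 8 were called. In low potassium only KRS1, the lysyl-tRNA synthetase, was called, and it fell by 0.23 ± 0.06 (edgeR adjusted p 0.0375), where 1.21% of all features were higher and 0.583% lower. With the block 2 were called. The interaction was past the threshold for SMM1 alone (0.40 ± 0.09, edgeR adjusted p 0.00889), where 1.72% of all features were higher and 1.06% lower.

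The counts of list members called for the deletion depended on single libraries. In standard potassium it was 2 without WT replicate 2, sis2Δ replicate 2 or sis2Δ replicate 3 of that medium, 9 without sis2Δ replicate 1 of that medium, 8 without sis2Δ replicate 2 in 0.5 mM KCl, and 7 without WT replicate 1 or sis2Δ replicate 3 in 0.5 mM KCl. In low potassium it was 10 without sis2Δ replicate 2 of that medium and 0 without WT replicate 1 or 2 or sis2Δ replicate 1 or 3 of that medium, or WT replicate 1 or sis2Δ replicate 2 or 3 in 7.35 mM KCl. The interaction gave 2 without sis2Δ replicate 2 in 0.5 mM KCl.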

How the data were processed

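RNA was measured by paired-end, strand-marking, poly(A)-selected RNA-seq in 12 cultures, 3 in each of 4 groups. Per the submitters' processing notes, bcl2fastq, cutadapt 2.6, STAR 2.7.6a, featureCounts of Subread 1.6.2 and genome build R64 were used, and their settings are not given in the sources used here. The deposited values are estimated counts per annotated feature. Exactly whole numbers made up 40.1% of all values and 70.5% of the nonzero nuclear tRNA values, and all were rounded before testing. Where one read is shared between features, its division between near-identical genes is fixed by that counting, so sums per anticodon were tested as well; 2 genes of undetermined anticodon belong to no such sum.

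Counts were tested with edgeR 4.0.16 (R 4.3.3): low-count filter by group, TMM scaling, a quasi-likelihood fit with 1 term per group over all libraries, and Benjamini-Hochberg adjustment over all features, at 0.05. The biological coefficient of variation was 5.7%. DESeq2 1.42.0 was an alternative. The steps were also run on simulated counts with a common spread for all features and changes set only in better counted features. How well changes of low-count tRNA genes are recovered was not tested. The labels give each replicate number as a batch, so same-numbered libraries were taken as pairs for an alternative fit with that block; deviations of same-numbered libraries had a median correlation of 0.0576 over 18 pairs against -0.0343 over 36 others. Libraries of a group differed by more than counting noise (chi-square per degree of freedom 8.08 to 46.1).

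Named were tA(AGC)P, SIS2 and the initiator genes; per comparison, up to 5 called tRNA genes at each end among those averaging 50 counts or more without overlap of the groups, and for the interaction up to 5 by adjusted p; the 10 of highest level per kb; the 10 highest anticodon sums and up to 3 called at each end; 2 called at each end of each machinery list; and nearest same-strand genes. Calls that the block changed, the valine pair, the uncalled highest genes and the opposite-strand neighbours were named after their values were seen. The members and lists were chosen with earlier results of these data known. Alternatives were other scalings, filters, rounding, DESeq2, the block, fits of only the libraries compared, neighbour distances and each library left out in turn. Loci and sequences are from RefSeq, build R64: 170 genes were tied to a locus and 266 to a mature sequence. No intervals are given for single values, since replicate SDs include counting error.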

Additional observations from a re-analysis of the deposited data

Results flagged for a closer look

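An interaction term was past the threshold for 3 of 78 tested tRNA genes and 3 of 33 tested anticodon families, all lower in sign. It is the effect of deleting SIS2 in 0.5 mM minus that in 7.35 mM KCl (log2), in edgeR's quasi-likelihood test. Of all features, 1.72% were called higher and 1.06% lower beside the single genes, and 1.73% and 1.07% beside the families. For the genes the interaction was -0.69 for tG(GCC)D2, -1.13 for tH(GUG)E2 and -1.30 for tE(UUC)K. For the families it was -0.76 for tE(UUC), -0.54 for tG(GCC) and -0.72 for tH(GUG). Each family holds the gene of the same name, so the family values are not separate evidence. Leaving out single libraries lost the call of tG(GCC)D2 in 2, tH(GUG)E2 in 8 and tE(UUC)K in 10 of 12 omissions, and of the families tE(UUC) in 5, tG(GCC) in 7 and tH(GUG) in 9. With fractions cut off instead of rounded, tE(UUC)K and the family tH(GUG) were not called (edgeR adjusted p 0.0502 and 0.0516). None of the 6 was called with scaling on the tRNA genes or families alone.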

How the results depend on the processing

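Scaling on the tRNA genes or families alone sets their joint shift to about 0 by construction. It moved the median of all features to -0.91 for low potassium in WT, -0.67 in sis2Δ, -0.49 for the deletion in standard and -0.25 in low potassium, and to 0.24 for the interaction (log2). Of the 78 genes, 18 were then called higher and 16 lower for low potassium in WT, 14 and 8 (22 in all) in sis2Δ, 6 and 4 for the deletion in standard potassium, 2 and 2 (4 in all) in low potassium, and 0 for the interaction. Of the families 8 and 5 (13), 5 and 8 (13), 3 and 2 (5), 2 and 2, and 0 were called. tL(UAG)L1 in WT (-0.023) and tW(CCA)P in sis2Δ (-0.080) changed sign under this scaling for low potassium. The direction of the tRNA genes is thus relative to the bulk of mRNAs, and no absolute scale was measured.

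Requiring 10 counts in every library, which left fewer tRNA genes to test, gave 18 and 20 genes for low potassium in WT and sis2Δ. For the deletion in low potassium, no low-count filter and DESeq2 each gave 5 genes. With single libraries left out, gene calls ranged from 8 to 14 and 3 to 8 for the deletion in standard and low potassium, 37 to 45 and 32 to 43 for low potassium in WT and sis2Δ, and 0 to 4 for the interaction; families ranged from 8 to 13, 3 to 4, 22 to 26, 19 to 24 and 0 to 3. Group sums moved by less than 1 SD under total-count or DESeq2 scaling. Group sums without single libraries ranged from 38.7 to 41.9, 56.8 to 59.2, 79.3 to 85.2 and 95.0 to 99.1 CPM for WT and sis2Δ in standard and then in low potassium.

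The replicate block gave 13, 7, 42, 40 and 4 gene calls and 11, 3, 25, 24 and 3 family calls in the order deletion in standard, deletion in low, low potassium in WT, low potassium in sis2Δ, interaction. It lost tV(AAC)G2 in 1 comparison, gained tM(CAU)P and tR(UCU)G2 for low potassium in sis2Δ and tE(UUC)G1 for the interaction, and changed no other call of a tRNA gene or family. Machinery calls for the deletion were 8 with the block and 8 with DESeq2 in standard and 2 and 2 in low potassium, and ranged from 2 to 9 and 0 to 10 without single libraries; for low potassium they ranged from 74 to 91 and 76 to 96, and for the interaction from 1 to 2. With neighbours within 1000 bp on the same strand, r was -0.18 for low potassium in WT, 0.32 in sis2Δ, -0.30 and 0.37 for the deletion in standard and low potassium, and 0.027 for the interaction. Too few pairs lay within 100 bp for a value. Other causes of these changes were not tested. The low depth on tRNA genes limits single-gene statements to 78 of 275 genes.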

Other observations

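The valine family showed a second pair of near-identical genes that differ in sequence and are both well counted. tV(AAC)O, at 663812 to 663885 on the minus strand of chromosome XV (build R64), has a mature sequence of its own that is 1 edit away from that of tV(AAC)G2 and the other 12 genes of its set, and it had 46.5 mean counts against 44.0 for tV(AAC)G2.

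By amino acid, the summed CPM of glutamate tRNA genes had the highest log2 ratio of means for low against standard potassium in WT (2.07, 16 genes), followed by glycine (1.605, 21 genes) and aspartate (1.503, 16 genes). Tryptophan (0.25, 6 genes) and lysine (0.27, 21 genes) had the lowest ratios, and their groups overlapped. For the deletion in standard potassium, alanine was highest (0.96, 16 genes). These values are a description with no test.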
